A study of Mus musculus with 6 samples.

Results

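The p53 target genes are a set of 32 genes, chosen by symbol from a list of p53 itself (Trp53), the regulators that p53 switches on to limit its own activity, and its classical targets in cell cycle arrest, DNA repair, stress metabolism and cell death. All 32 symbols were found among the 49492 rows of the count table, and 30 had enough counts to test. The measurements come from RAW264.7, a mouse macrophage cell line, in 6 stranded mRNA libraries. In 3 libraries the cells had been transfected with 50 nM of an siRNA against Ep300 (labelled Ep300 silenced), and in the other 3 with 50 nM of a control siRNA (labelled WT), each for 48 h. Both groups received the same transfection reagent, and the labels name no DNA-damaging agent or other p53 activator. The labels give neither the siRNA sequences nor whether replicates were grown and transfected separately. The p-values therefore rest on the scatter of these samples alone, and that scatter may be technical.

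p53 is a transcription factor that is kept low by the ubiquitin ligase Mdm2 and accumulates when DNA is damaged or cells are stressed. It binds pairs of a 10-base element near its target genes and recruits the acetyltransferases p300 (the product of Ep300) and CBP, which acetylate histones and p53 itself. Its targets stop the cell cycle, repair DNA, adjust metabolism or kill the cell, and several of them, Mdm2 first, feed back to switch p53 off. The comparison asks whether these arrest, repair and death targets differ when Ep300 is silenced.

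Total counts per library ran from 29993567 to 45377510. Expression is given as CPM, the count of a gene relative to the library total after TMM scaling, an edgeR method that aligns libraries on most genes. Ep300 held 51.1, 59.0 and 55.0 CPM after Ep300 siRNA against 106.8, 115.3 and 118.4 CPM after control siRNA. All 3 silenced libraries lay below all 3 controls, at 0.485 of the control level in the fit (edgeR adjusted p = 3.62e-05). The 10 macrophage markers summed to between 10950 and 13170 CPM in every library. Lyz2 alone was at 8263 CPM after Ep300 siRNA and 7471 CPM in the controls, while Mrc1 was at 1.06 and 1.44 CPM. Csf1r and Adgre1 were lower and Cd14 and Cd68 higher in every Ep300 siRNA library, none with an edgeR adjusted p under 0.05. The 18 markers of other cell types summed to between 1.11 and 1.72 CPM, and 2 of them had no count at all. Ep300 siRNA replicate 1 stood apart from the other libraries. It had 5823 CPM of Gm42418, a gene over ribosomal RNA sequence, against 1327 to 2174 CPM elsewhere. It also had the most extreme score on the leading principal component. That component separated the groups too, with scores of −29.7, −13.8 and −8.88 in Ep300 siRNA replicates 1, 2 and 3 and 16.8 to 18.8 in the controls.

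The response of the p53 targets was small, and most members did not pass the test. Ccng1, Ei24, Aen and Xpc rose, Mdm2 fell, and 25 of the 30 members tested did not pass the test. The test was edgeR's quasi-likelihood F-test with Benjamini-Hochberg adjustment over all 15741 genes tested and a threshold of 0.05. Trp53 itself and Cdkn1a, the best known p53 target, were not past the threshold. Members that rose made up 13.3% of those tested and members that fell 3.33%, beside 2.76% and 4.02% of all genes tested (6.78% in either direction). The members were chosen with earlier results of these data known, so these shares are a description only. They were not matched for level: the median was 28.8 CPM for members tested and 13.45 CPM for all genes tested. The median log2 fold change of the 30 members was 0.05, beside 0.00 for all genes tested, and 18 members were above 0 and 12 below.

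**Figure D1:**
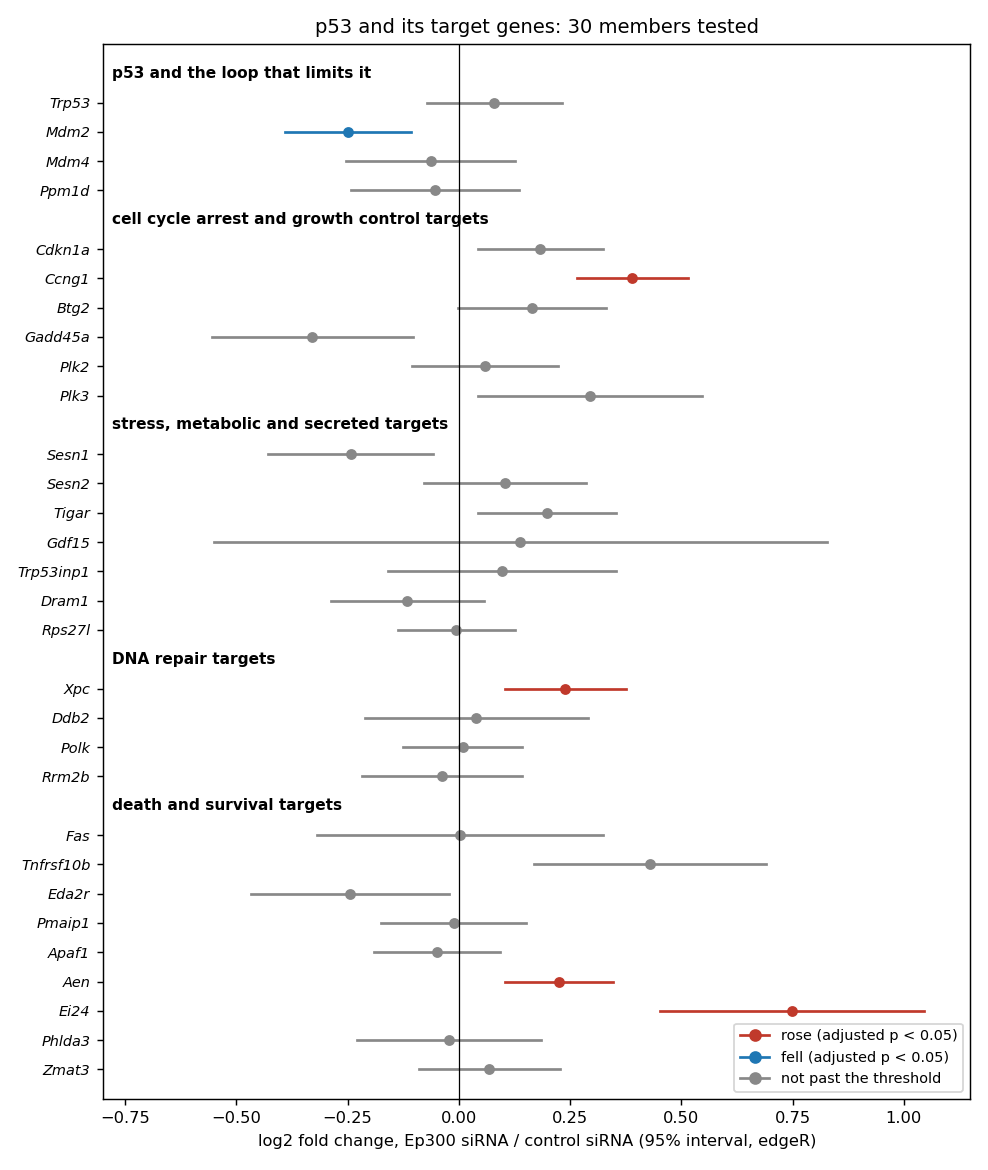
Log2 fold change of Ep300 siRNA over control siRNA (horizontal axis) with its 95% interval for the 30 members tested, grouped by role; red rose, blue fell, grey did not pass an adjusted p of 0.05. Ei24 lies farthest to the right at 0.75, Mdm2 is the single member that fell, and most grey intervals cross 0.

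The DNA beside the start sites of these genes is shown first, since the 10-base p53 element (the p53 decamer) is the feature through which p53 acts. RefSeq promoter windows (GRCm38.p6, 250 bases before to 50 bases after an annotated start) were at hand for 24 members. An exact decamer was in a window of 12 of these 24 genes, or 50.0%, beside 9.55% of all 27025 genes with a window. The decamer reads the same on both strands, so 1 search covers both. A stricter search asked for 2 decamers joined without a gap, with at most 2 of the 20 positions off and the central C and G of each decamer kept. It found 3 members, Ccng1, Cdkn1a and Rps27l (12.5%), beside 0.392% of all genes. Among tested genes with a window, 8.18% had an exact decamer and 0.455% a double one. The members were chosen as p53 targets, so these contrasts follow in part from that choice. These 3 double decamers are printed 5′ to 3′ in the direction of transcription, with the 20 matched bases in capitals, because they are the closest matches among the members.

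Ccng1 (double decamer, chr11:40755457-40755486, minus strand): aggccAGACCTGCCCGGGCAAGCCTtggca
Cdkn1a (double decamer, chr17:29090923-29090952, plus strand): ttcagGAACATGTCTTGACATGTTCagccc
Rps27l (double decamer, chr9:66946291-66946320, plus strand): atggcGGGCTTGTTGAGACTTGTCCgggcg

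The Ccng1 match lies 195 to 176 bases before its start, that of Cdkn1a 51 to 32 bases before the first of 2 annotated starts, and that of Rps27l 117 to 98 bases before the second of its 2 starts. Each had 1 of its 20 positions off. These 3 genes did not move alike: Ccng1 rose, Cdkn1a was at a log2 fold change of 0.18 and did not pass, and Rps27l was at −0.01. Single exact decamers, in capitals below, are shown for the other members that passed the test and have one, for Trp53, and for Gadd45a and Sesn1, which were lower without passing.

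Ei24 (single decamer, chr9:36797325-36797354, minus strand): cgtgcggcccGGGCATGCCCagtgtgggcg
Aen (single decamer, chr7:78895927-78895956, plus strand): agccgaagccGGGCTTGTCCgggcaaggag
Mdm2 (single decamer, chr10:117710925-117710954, minus strand): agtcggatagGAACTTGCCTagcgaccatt
Trp53 (single decamer, chr11:69580274-69580303, plus strand): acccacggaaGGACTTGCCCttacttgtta
Gadd45a (single decamer, chr6:67037428-67037457, minus strand): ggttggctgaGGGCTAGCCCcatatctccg
Sesn1 (single decamer, chr10:41887256-41887285, plus strand): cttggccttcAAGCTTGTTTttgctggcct

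The Ei24 decamer ends at the last base before the annotated start, and that of Mdm2 lies 186 to 177 bases before the annotated start. For Aen the decamer follows the first annotated start and precedes the second. Aen, Ccng1 and Ei24 rose and Mdm2 fell, so decamers were present beside members that moved either way. Among the 11 tested members with a decamer, 3 rose and 1 fell, with a median log2 fold change of 0.01. Among the 12 tested members whose window lacked one, none passed edgeR's adjusted p, and the median was 0.03. Another 7 tested members had no window at hand. Of these 1 rose, Xpc, and the median was 0.07. Over all genes tested 2.76% rose and 4.02% fell. Whether a decamer went with a change was not tested. A match is a stretch of letters and does not show binding, and p53 sites that lie farther away or inside introns are outside these windows. The 250 bases before the start are given for Ccng1 and Ei24, the members whose rise was kept with any 1 library left out, with exact decamers in capitals.

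Ccng1 (bases before the start, chr11:40755287-40755536, minus strand): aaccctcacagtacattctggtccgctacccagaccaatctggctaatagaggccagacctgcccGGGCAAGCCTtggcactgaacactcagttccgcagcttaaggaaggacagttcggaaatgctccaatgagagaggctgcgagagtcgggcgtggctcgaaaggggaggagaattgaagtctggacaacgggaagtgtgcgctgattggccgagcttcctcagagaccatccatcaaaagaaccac
Ei24 (bases before the start, chr9:36797335-36797584, minus strand): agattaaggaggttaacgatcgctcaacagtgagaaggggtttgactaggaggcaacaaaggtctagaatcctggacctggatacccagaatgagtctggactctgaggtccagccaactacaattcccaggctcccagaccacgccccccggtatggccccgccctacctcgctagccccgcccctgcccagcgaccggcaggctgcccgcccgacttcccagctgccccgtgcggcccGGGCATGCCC

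In the loop that limits p53, Mdm2 alone passed the test. Mdm2 (GRCm38 chromosome 10, 117688875 to 117710758, minus strand) encodes the ubiquitin ligase that marks p53 for destruction. It was at 402.5, 432.1 and 433.9 CPM in Ep300 siRNA replicates 1, 2 and 3, and at 526.5, 503.1 and 478.4 CPM in control siRNA replicates 1, 2 and 3. Every Ep300 siRNA library was below every control library. The mean fell from 502.6 ± 24.1 to 422.8 ± 17.7 CPM (SD, n = 3), to 0.841 of control (log2 fold change −0.25 ± 0.06, SE; 95% interval −0.39 to −0.11; edgeR adjusted p = 0.0413). Leaving out any 1 of the 6 libraries ended the call (edgeR adjusted p 0.0636 to 0.163).

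Trp53 mRNA was close to equal in both groups. It was at 34.8, 36.6 and 39.2 CPM after Ep300 siRNA and at 36.3, 33.2 and 35.1 CPM after control siRNA, and the groups overlapped. On the log2 scale the difference was 0.08 ± 0.07 (SE; edgeR adjusted p = 0.553), with a 95% interval of −0.07 to 0.23. Mdm4, a relative of Mdm2 that blocks the activation domain of p53, was at 56.6, 69.1 and 56.8 CPM against 63.6, 58.7 and 68.4 CPM, and its groups overlapped too (log2 fold change −0.06 ± 0.09, SE; edgeR adjusted p = 0.733). Ppm1d encodes the phosphatase Wip1, which reverses damage signalling to p53. It was at 17.4, 15.1 and 15.6 CPM against 17.1, 17.2 and 15.5 CPM, and the groups overlapped (log2 fold change −0.05 ± 0.09, SE; edgeR adjusted p = 0.773). A protein-level change of p53 would not show in these mRNA counts.

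**Figure D2:**
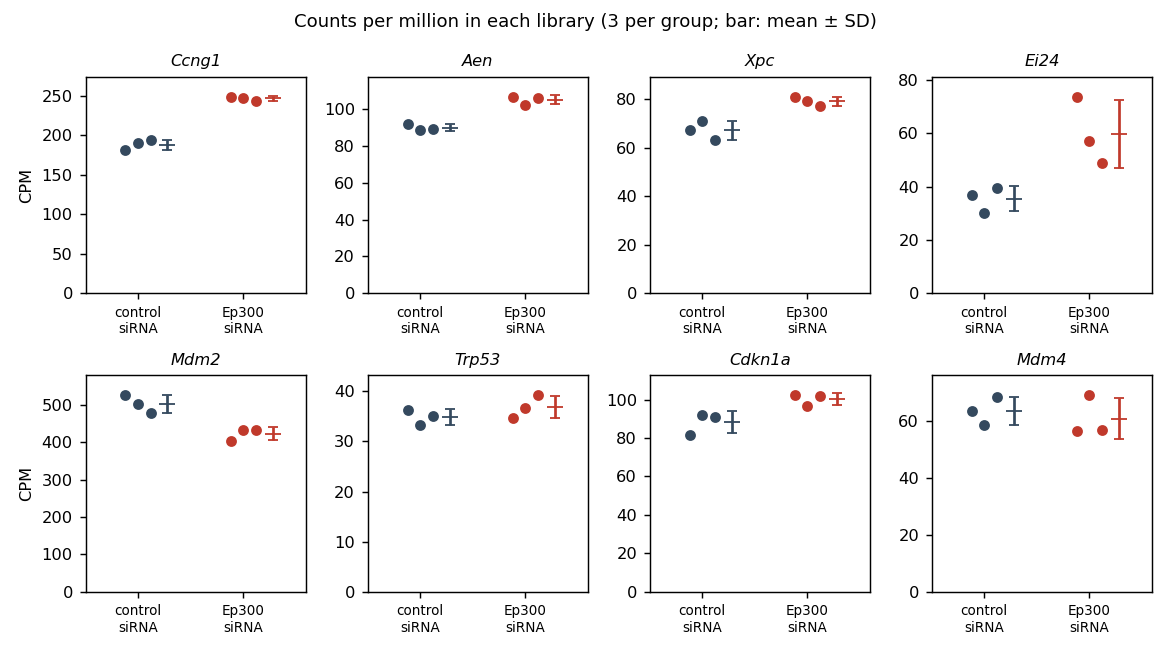
CPM (vertical axes, from 0) in each of the 3 control siRNA and 3 Ep300 siRNA libraries for the 5 members that passed the test and for Trp53, Cdkn1a and Mdm4; points are libraries in order of replicate number and bars are mean ± SD. Ccng1, Aen, Xpc, Ei24 and Cdkn1a are higher and Mdm2 lower in every Ep300 siRNA library, while Trp53 and Mdm4 overlap.

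Among the arrest and growth control targets, Ccng1 had the smallest p of all members. Ccng1 (chromosome 11, 40748552 to 40755311, minus strand) encodes cyclin G1, which brings the phosphatase PP2A to Mdm2. Its level was 248.8, 247.8 and 243.4 CPM after Ep300 siRNA and 181.0, 189.8 and 193.8 CPM after control siRNA. The groups were far apart for their spread, with 246.6 ± 2.88 against 188.2 ± 6.54 CPM (SD, n = 3). The rise was 1.31-fold (log2 fold change 0.39 ± 0.06, SE; 95% interval 0.26 to 0.52; edgeR adjusted p = 0.0027).

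Cdkn1a encodes p21, the inhibitor of cyclin-dependent kinases through which p53 halts the cell cycle. It was at 102.3, 96.7 and 101.7 CPM after Ep300 siRNA and 81.8, 92.2 and 90.9 CPM after control siRNA. Every Ep300 siRNA library was above every control, by 1.14-fold in the fitted mean, but the adjusted p was 0.115 (edgeR; log2 fold change 0.18 ± 0.06, SE; 95% interval 0.04 to 0.32). The adjusted p stayed above 0.05 in all 16 alternatives run (0.0883 to 0.259).

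Gadd45a, a damage-induced gene that takes part in arrest and DNA repair, pointed the other way. Its values were 11.3, 11.8 and 10.4 CPM against 15.0, 14.7 and 12.2 CPM in the controls, all lower, with a log2 fold change of −0.33 ± 0.10 (SE) and an edgeR adjusted p of 0.0823. It passed with no filter on low counts (adjusted p = 0.0353) and without control siRNA replicate 3 (0.0491). The noncoding gene E230016M11Rik shares 337 exonic bases with Gadd45a on the opposite strand. Its mean was lower after Ep300 siRNA too, at 3.119 CPM against 4.239 CPM in the controls. The sources used here do not say whether counting used strand, so reads in the shared stretch cannot be told apart.

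Plk3, a stress-responsive polo-like kinase, was at 8.60, 9.20 and 8.07 CPM against 7.52, 7.39 and 6.16 CPM (log2 fold change 0.29 ± 0.11, SE; edgeR adjusted p = 0.152). Its relative Plk2 overlapped between the groups (130.1, 138.1 and 125.5 CPM against 134.3, 131.3 and 112.3 CPM; edgeR adjusted p = 0.709). Btg2, an antiproliferative gene, was slightly higher in all 3 Ep300 siRNA libraries (20.4 ± 0.388 against 18.2 ± 1.12 CPM, SD, n = 3; edgeR adjusted p = 0.229). In this group of 6 genes, 1 rose, none fell, and 5 had positive log2 fold changes, with Gadd45a the exception.

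Among the 4 DNA repair targets, Xpc rose and the other 3 did not pass the test. Xpc (chromosome 6, 91489305 to 91515888, minus strand) recognises DNA lesions at the start of nucleotide excision repair. It was at 80.9, 79.4 and 77.2 CPM after Ep300 siRNA and 67.4, 70.8 and 62.9 CPM after control siRNA, without overlap. The rise was 1.18-fold, from a mean of 67.0 ± 3.94 to 79.2 ± 1.85 CPM (SD, n = 3), with a log2 value of 0.24 ± 0.06 (SE; edgeR adjusted p = 0.0407). This call, too, ended with any 1 of the 6 libraries left out (edgeR adjusted p 0.0549 to 0.144), and with libraries scaled by their totals alone (0.0622).

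Ddb2, which finds ultraviolet damage ahead of Xpc, was at 8.72 ± 0.691 against 8.48 ± 0.935 CPM (SD, n = 3). Its interval of −0.21 to 0.29 on the log2 scale still includes the size seen for Xpc. Ddb2 also shares 652 exonic bases with Acp2 on the opposite strand, which was at 43.4 and 43.3 CPM in the 2 groups. Polk, a polymerase that copies past lesions, was at 63.0 ± 3.46 against 62.6 ± 1.39 CPM (SD, n = 3; 95% interval −0.13 to 0.14). Rrm2b, the p53-induced subunit of ribonucleotide reductase, was at 13.9 ± 0.383 against 14.2 ± 0.676 CPM (SD, n = 3; 95% interval −0.22 to 0.14). Both intervals end below the fitted value of Xpc, though the difference between genes was not tested.

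Among the death and survival targets, Ei24 and Aen rose. Ei24 (chromosome 9, 36779159 to 36797393, minus strand), also called PIG8, encodes a membrane protein of the endoplasmic reticulum linked to cell death and autophagy, and its change was the largest of all members. Its level was 73.7, 56.9 and 48.8 CPM after Ep300 siRNA against 36.9, 30.2 and 39.4 CPM in the controls. The groups did not overlap, but the spread among the Ep300 siRNA libraries was wide, with the highest value in replicate 1, the library with the most Gm42418. The mean rose 1.68-fold, from 35.5 ± 4.77 to 59.8 ± 12.7 CPM (SD, n = 3), or 0.75 ± 0.14 on the log2 scale (SE; 95% interval 0.45 to 1.05; edgeR adjusted p = 0.00749). Without Ep300 siRNA replicate 1 it was 0.58 on the log2 scale (edgeR adjusted p = 0.00924). An antisense gene, Gm26787, shares 324 exonic bases with Ei24 and was at 1.87 CPM after Ep300 siRNA and 1.33 CPM in the controls. Here too, reads in the shared stretch cannot be told apart.

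Aen (chromosome 7, 78895854 to 78911209, plus strand) encodes an exonuclease that digests DNA in dying cells. It was at 106.5, 102.3 and 106.0 CPM after Ep300 siRNA and 91.8, 88.6 and 88.9 CPM after control siRNA, a narrow spread in both groups. The rise was 1.17-fold (log2 fold change 0.22 ± 0.06, SE; 95% interval 0.10 to 0.35; edgeR adjusted p = 0.0332). The call was kept without control siRNA replicate 1, lost with each of the other 5 libraries left out (edgeR adjusted p 0.0704 to 0.11), and lost with library sizes alone (0.0676) and with no filter on low counts (0.0505).

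Tnfrsf10b, the death receptor for TRAIL, came close to the threshold. Its values were 11.6, 11.9 and 14.3 CPM against 8.19, 10.5 and 9.52 CPM, higher in every Ep300 siRNA library (log2 fold change 0.43 ± 0.12, SE; 95% interval 0.17 to 0.69; edgeR adjusted p = 0.0542). It passed by DESeq2 (adjusted p = 0.0165) and with no filter on low counts (edgeR adjusted p = 0.00582). Its longest transcript aligned over at least 100 bases, at 95% identity or more, with transcripts of 89 other genes, so some reads may be shared. Fas, the other death receptor known as a p53 target, was at 7.74 ± 1.25 against 7.76 ± 1.23 CPM (SD, n = 3). Eda2r, a receptor of the TNF family, was lower in all 3 Ep300 siRNA libraries (7.44, 8.39 and 8.40 against 8.98, 9.84 and 9.96 CPM; log2 fold change −0.24 ± 0.10, SE; edgeR adjusted p = 0.18).

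The mitochondrial death genes in the set overlapped between the groups. Pmaip1 (Noxa), a BH3-only protein and one of the more abundant members, was at 128.4 ± 9.54 against 129.5 ± 9.66 CPM (SD, n = 3; 95% interval −0.17 to 0.15). Apaf1, the scaffold that activates caspase-9, was at 34.2 ± 1.23 against 35.3 ± 1.36 CPM (SD, n = 3; 95% interval −0.19 to 0.09). Phlda3, an inhibitor of Akt, was at −0.02 ± 0.09 (log2 fold change, SE), and Zmat3, an RNA-binding regulator of splicing, at 0.07 ± 0.07. Perp, a desmosomal protein of epithelia, was counted at 2 in every library and was not tested. Of the 10 genes in this group, 2 rose, none fell, and 7 did not pass.

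Among the 8 stress, metabolic and secreted targets none passed by edgeR's adjusted p; at an unadjusted p under 0.05 there were 2, which differed in direction. Tigar, a phosphatase that lowers glycolytic flux, was at 34.1, 33.0 and 35.4 CPM against 31.4, 30.5 and 27.5 CPM (log2 fold change 0.20 ± 0.07, SE; edgeR adjusted p = 0.123). It shares 122 exonic bases with Platr31 on the opposite strand, which was at 4.80 CPM after Ep300 siRNA and 4.81 CPM in the controls. Sesn1, a sestrin that restrains mTORC1, was at 19.4, 20.8 and 19.4 CPM against 21.4, 23.4 and 25.9 CPM (log2 fold change −0.24 ± 0.08, SE; edgeR adjusted p = 0.113), and it passed without control siRNA replicate 1 (0.0491). Both genes had groups that did not overlap. By DESeq2 no gene of this group passed either.

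Sesn2, the other sestrin in the set, overlapped between groups at 19.9 ± 1.70 against 18.5 ± 0.663 CPM (SD, n = 3). Trp53inp1 and Dram1, both linked to autophagy, were at 0.10 ± 0.12 and −0.12 ± 0.08 (log2 fold change, SE). Rps27l, a ribosomal protein paralog, was among the steadiest members at 56.7 ± 1.79 against 56.9 ± 2.47 CPM (SD, n = 3; 95% interval −0.14 to 0.13). Gdf15, a secreted stress cytokine, had only 19 to 37 counts per library and an interval of −0.55 to 0.83. Ddit4l, an mTORC1 inhibitor, had 2 counts in 1 control library and none in the other 5.

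**Figure D3:**
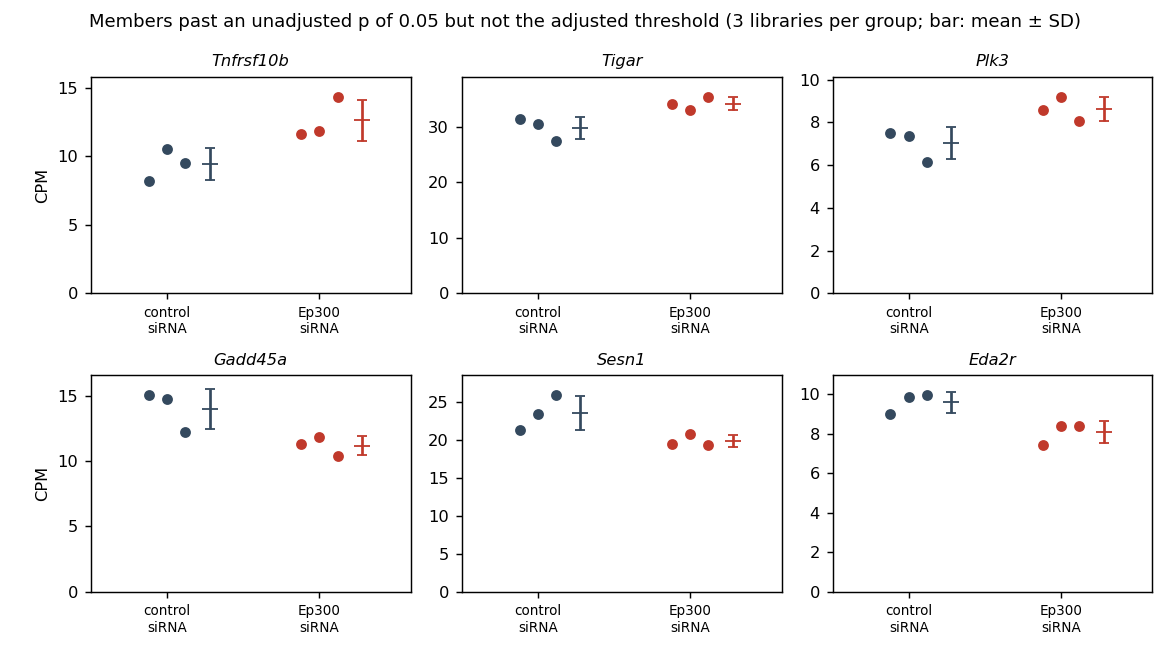
CPM (vertical axes, from 0) by library for 6 members with an unadjusted p under 0.05 that did not pass the adjusted threshold; points are libraries in order of replicate number and bars are mean ± SD (n = 3). Tnfrsf10b, Tigar and Plk3 are higher and Gadd45a, Sesn1 and Eda2r lower in every Ep300 siRNA library.

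Counted over the whole set, 8 members had an unadjusted edgeR p under 0.05 and were higher, and 4 were lower, or 26.7% and 13.3% of those tested. Over all genes tested these shares were 10.3% and 11.9%. The 3 Ep300 siRNA libraries lay wholly above the controls for 9 members and wholly below for 4, or 30.0% and 13.3%, beside 13.0% and 14.4% of all genes tested. As with the calls, these shares only describe members chosen with earlier results of these data known. The median member, relative to its own mean over the 6 libraries, stood at 0.03, 0.05 and 0.05 on the log2 scale in Ep300 siRNA replicates 1, 2 and 3 and at −0.05, −0.03 and −0.03 in the controls. These values are centred on each gene's own mean, so opposite signs in the groups are partly built in. The median log2 fold change of the members moved from 0.05 to 0.0233 without Ep300 siRNA replicate 2, to 0.0286 without Ep300 siRNA replicate 3 and to 0.0301 without control siRNA replicate 2.

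Levels per length set the genes in order within the control libraries. CPM per kilobase of exonic length was highest for Mdm2 (98.9 ± 4.74, SD, n = 3), followed by Rps27l (69.8 ± 3.02), Ccng1 (53.6 ± 1.86) and Pmaip1 (47.4 ± 3.54). The libraries of each of these 4 genes lay above those of the next in order. Plk2 (28.1 ± 2.66) and Cdkn1a (24.9 ± 1.61) overlapped. Trp53 (8.62 ± 0.382) was twelfth of the 32, overlapping Tigar (8.14 ± 0.553). Tnfrsf10b (1.73), Eda2r (1.63) and Rrm2b (1.56) came near the low end, and Gdf15, Perp and Ddit4l were each below 0.5. After Ep300 siRNA the per-length level of Ccng1 was 70.2, beside 69.5 for Rps27l, and that of Mdm2 was 83.2. Exonic length counts all annotated isoforms together, so a gene whose annotated exons are not all used gets a lower value; the use of exons was not measured. In a bulk culture, fewer cells that express a gene and less of its RNA per cell cannot be told apart.

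**Figure D4:**
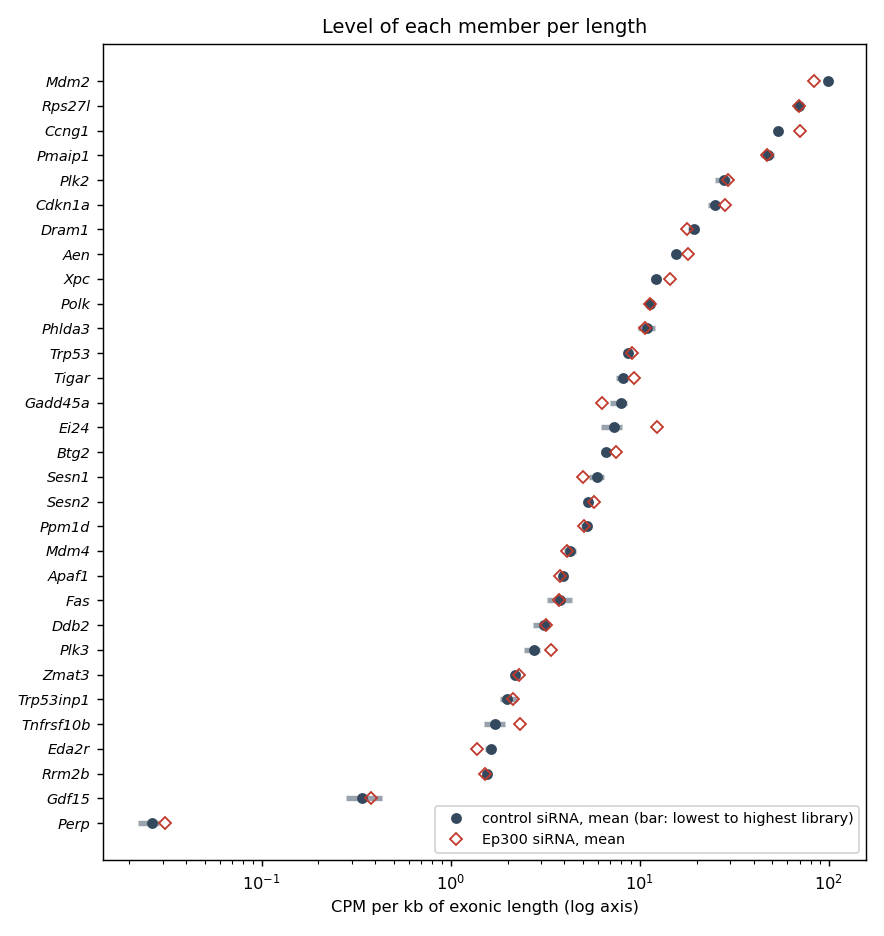
CPM per kilobase of exonic length (log axis) for 31 members, ordered by the control mean (filled circles, with bars from the lowest to the highest of 3 libraries); open diamonds are the Ep300 siRNA means, and Ddit4l, at 0 in 5 libraries, is left out. Levels span from 98.9 for Mdm2 to 0.03 for Perp, and Ei24 shows the widest gap between groups.

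Other genes of the p53 pathway were read from 4 lists, also chosen with earlier results of these data known. Of 25 further p53 targets, 24 were tested, 1 rose and 2 fell, with a median log2 fold change of 0.05. Those that rose were 4.17% and those that fell 8.33%, beside 2.76% and 4.02% of all genes tested. Cd82, a tetraspanin, rose 1.25-fold (102.7 ± 2.63 against 82.0 ± 0.982 CPM, SD, n = 3; edgeR adjusted p = 0.00568). Bid, a BH3-only protein that carries death receptor signals to mitochondria, fell to 0.827 of control (49.9 ± 4.48 against 60.4 ± 2.58 CPM, SD, n = 3; edgeR adjusted p = 0.0455, and 0.0521 with RLE, the scaling of DESeq2). Leaving out control siRNA replicate 2 or 3, or replicate 1 or 2 of the Ep300 siRNA group, also ended the call (edgeR adjusted p 0.12 to 0.175). Lif, a cytokine, fell to 0.599 (1.64 ± 0.235 against 2.73 ± 0.117 CPM, SD, n = 3; edgeR adjusted p = 0.0324), a call lost with any 1 library left out (0.0516 to 0.109). Bax and Bbc3 (Puma), the mitochondrial death effectors p53 is best known for, were at 0.01 ± 0.06 and 0.13 ± 0.09 (log2 fold change, SE) and did not pass.

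Of 21 p53 kinases, ligases and binding partners, 18 were tested and 1 passed. It fell, which makes 5.56% of those tested, beside 4.02% of all genes tested. Chek1, a checkpoint kinase of DNA replication stress, fell to 0.818 of control (15.0, 14.3 and 16.0 against 18.5, 18.3 and 18.6 CPM; edgeR adjusted p = 0.0468). No single library could be left out without losing that call (edgeR adjusted p 0.0666 to 0.158), and RLE scaling ended it too (0.0515). Atm, the damage-sensing kinase, was at −0.15 ± 0.07 (log2 fold change, SE; edgeR adjusted p = 0.237). The p53 relatives Trp63 and Trp73 and the Mdm2 inhibitor locus Cdkn2a were at or near 0 counts.

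Of 16 genes that acetylate p53, assist that step or reverse it, Ep300 fell, Hdac1 rose and 14 did not pass. That is 6.25% each way, the silenced gene included, beside 4.02% that fell and 2.76% that rose among all genes tested. Hdac1, a deacetylase, was at 124.3 ± 1.16 against 106.6 ± 3.20 CPM (SD, n = 3; edgeR adjusted p = 0.0355; 0.075 with libraries scaled by their totals alone). Its call held without control siRNA replicate 1 and was lost without each other library (0.0787 to 0.123), and with no filter on low counts (0.0516). Jmy and Ttc5, cofactors that work with p300 on p53, were at 0.19 ± 0.08 and 0.14 ± 0.08 (log2 fold change, SE) and did not pass. Of 18 cell division genes that are lowered through p21, 4 fell, none rose, and 17 had negative values, with a median log2 fold change of −0.22. Those that fell were 22.2% of this list and those with negative values 94.4%, beside 4.02% and 50.8% of all genes tested. The shares were not matched for level: the median was 65.6 CPM in this list and 13.45 CPM over all genes tested. The list was chosen with earlier results of these data known, so these shares are a description only. Whether p21 had a part was not tested. The 4 that fell were Ccnb1 (to 0.752 of control), Kif23 (0.767), Bub1b (0.777) and Plk1 (0.795; edgeR adjusted p = 0.0469, and 0.0504 with RLE scaling). Without Ep300 siRNA replicate 2 or control siRNA replicate 3 all 4 of these calls were lost (edgeR adjusted p 0.0721 to 0.161). Further calls were lost without Ep300 siRNA replicate 1 (Kif23, Bub1b and Plk1), Ep300 siRNA replicate 3 (Bub1b), control siRNA replicate 1 (Plk1) and control siRNA replicate 2 (Ccnb1, Bub1b and Plk1), and for Plk1 with upper-quartile scaling (0.0509).

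**Figure D5:**
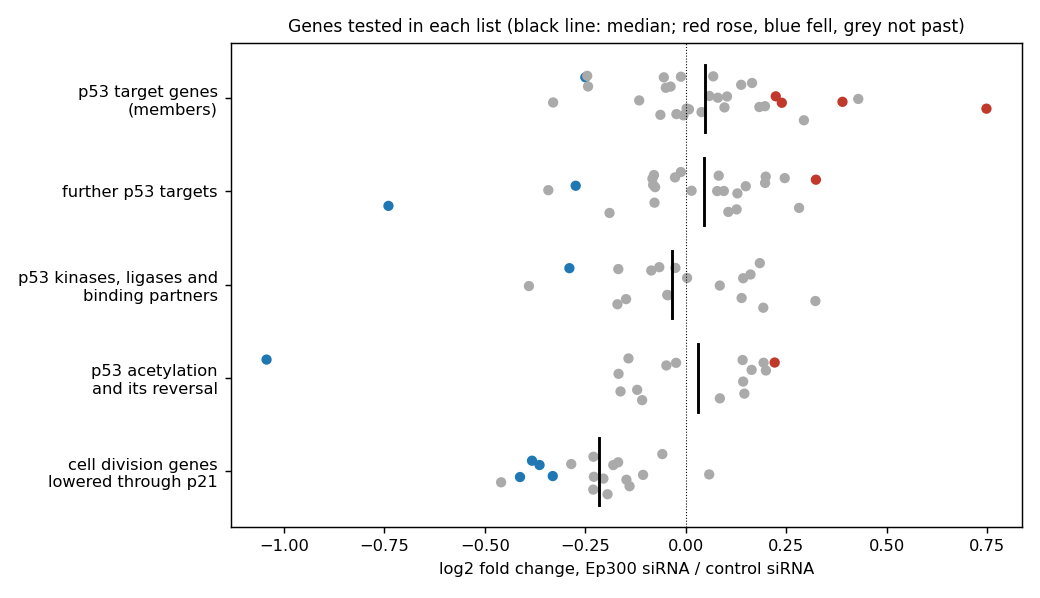
Log2 fold change of Ep300 siRNA over control siRNA (horizontal axis) for each gene tested in the p53 target set and in 4 further lists; black lines are medians, red points rose, blue points fell and grey points did not pass. Medians of 0.05, 0.05, −0.03 and 0.03 lie near 0, and that of the cell division genes is −0.22; the point at −1.04 is Ep300.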

How the data were processed

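Gene expression was measured in 6 libraries of RAW264.7 cells. The authors deposited raw read counts per gene symbol. The submitters' processing notes name GRCm38, STAR 2.5.3a, fastp 0.23.4, edgeR 3.12.1 and featureCounts. How strand, multimapping reads and molecular identifiers were handled, and which annotation was used, is not given in these sources. Between 79.8% and 80.9% of the counts from 1 to 4 were even in a library, as when both mates of a pair are counted.

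The members and lists were chosen with earlier results of these data known. Columns were matched to samples by name. The test was that of edgeR 4.0.16 (R 4.3.3; filterByExpr, TMM, quasi-likelihood F-test, no covariate, two-sided); limma 3.58.1 and DESeq2 1.42.0 served as alternatives. Each standard error is the absolute log2 fold change divided by the root of its F value. Every member past the threshold, every member at an unadjusted p under 0.05, Trp53, Cdkn1a, Mdm2, Mdm4, Ppm1d and up to 4 called genes per pathway list were named with values. Cop1 was matched through its synonym. Coordinates and exonic lengths are from GENCODE M21 (GRCm38), promoter windows from RefSeq (GRCm38.p6). Transcripts were compared with BLAST 2.17.0. The edgeR step was tested on simulated data with planted changes of 1.5-fold or more. It recovered 74% of those at 1.5-fold, and 13 of its 197 calls had no planted change. Smaller changes, such as those of most called members, were not simulated. Within a group the libraries differed beyond counting noise (chi-square over its degrees of freedom, 8.43 to 29.6) and each counts as a replicate. PCR copies are not independent molecules.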

Additional observations from a re-analysis of the deposited data

How the results depend on the processing

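The 16 alternatives were 3 other scalings, 2 other filters, the replicate number as a block, DESeq2, limma-voom, halved counts, the table without mitochondrial mRNAs and Gm42418, and each library left out in turn. None of the 5 called members changed direction in any of them, nor did any gene called in the pathway lists. Of 20 further genes given with values that did not pass, 8 changed sign in at least 1 alternative (Plk2, Rps27l, Ddb2, Polk, Fas, Pmaip1, Phlda3 and Bax), and none passed the threshold in any. Ccng1, Ei24, Ep300 and Cd82 kept their call in all 16. The number of members that rose was 2 with library sizes alone and 2 to 3 with 1 library left out, against 4 in the reported fit. The number that fell was 2 with no filter on low counts and 0 to 1 with 1 library left out, against 1; Mdm2 fell in none of the latter, and Sesn1 (without control siRNA replicate 1) or Gadd45a (without control siRNA replicate 3) stood in its place. Over all genes, 1721 were called with no filter and 490 to 1054 with 1 library left out, against 1068. Scaling by library totals alone gave 316 higher and 788 lower genes, against 435 and 633. The median log2 fold change of the members was 0.0151 with library sizes alone, where the median of all genes shifted by −0.034.

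No pairing of libraries by replicate number was seen: same-numbered deviations correlated at 0.087, 0.02 and −0.047. With 3 libraries per group these values cannot exclude it. With the replicate block 5 members rose, Tnfrsf10b among them, 1 fell and 1357 genes were called; Chek1 was at an edgeR adjusted p of 0.05. The samples of 3 per group and the counts of Gdf15, Perp and Ddit4l limit what could be detected.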

Other observations

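The promoter windows were also searched for 2 elements of other factors known to recruit p300. The cyclic AMP response element TGACGTCA is bound by CREB and reads the same on both strands. It was in the windows of 3 of 24 members, Btg2, Plk2 and Ppm1d (12.5%). The share was 2.03% of all genes with a window and 3.69% of the tested genes with one. None of these 3 members passed edgeR's adjusted p, none had an unadjusted p under 0.05, and none passed by DESeq2. The AP-1 element TGANTCA, also the same on both strands, was in the windows of Fas and Mdm4, at log2 fold changes of 0.00 and −0.06. These are 8.33% of the members, beside 8.97% of all genes with a window and 6.38% of the tested genes with one. Ppm1d is the member whose window held both a p53 decamer and the cyclic AMP response element.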
